A study of Homo sapiens with 6 samples.

Results

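Synucleins and genes commonly used as neuronal markers were followed through clones of MiaPaCa2, a human cell line from a pancreatic ductal adenocarcinoma. The 7 genes were taken by symbol from the 26334 gene symbols of the deposited counts: the synuclein genes SNCB and SNCG, the ubiquitin hydrolase gene UCHL1, the enolase gene ENO2, the tubulin gene TUBB3 and the neurofilament genes NEFL and NEFM. They were chosen by their counts and fold changes between these same ZEB1-KO and WT clones, so their values in that contrast are given as a description and support nothing by themselves. The tested clones, labelled ZEB1-KO, were 3 genome-edited clones in which CRISPR-Cas9 had deleted ZEB1, the gene of a zinc-finger repressor of epithelial genes, and the other 3 were wild-type (WT) clones. Cells of both groups had been electroporated with a Cas9-GFP plasmid and sorted for GFP, and both grew in medium with 10% serum. Each library came from 2000 lysed cells of 1 clone, so a value belongs to a clone and not to a mixed culture. In such bulk RNA, fewer cells expressing a gene and less RNA per cell cannot be told apart.

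Synucleins are small proteins of nerve terminals that bind curved vesicle membranes, and gamma-synuclein, the product of SNCG, has also been found in carcinomas. UCHL1 (PGP9.5) is a deubiquitinase and ENO2 (neuron-specific enolase) a glycolytic enzyme, both very abundant in neurons and used as markers of neuroendocrine tumours. TUBB3 is the class III beta-tubulin of neuronal microtubules, which many carcinomas also contain, and NEFL and NEFM are the light and medium chains of neurofilaments. The transcription factor REST keeps many neuronal genes silent outside the nervous system.

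The total count was between 18909305 and 36798770 in ZEB1-KO libraries and between 26242238 and 42876693 in WT libraries. CPM stands for counts per 1e6 after scaling of libraries with TMM factors. On that scale 3 counts, the floor that a count of 0 allows, were worth 0.0687 to 0.150 CPM; such floors cover counting error only, because amplified reads carry no molecular identifiers. The counts of ZEB1, the targeted gene, were 67, 140 and 369 for ZEB1-KO replicates 1, 2 and 3, against 1486, 1011 and 830 for WT replicates 1, 2 and 3. ZEB1 transcript was thus still counted in each ZEB1-KO library, with ZEB1-KO replicate 3 highest of them. The epithelial keratins KRT18 and KRT8 ranked 48 and 101 by mean CPM among the 13659 genes tested, while KRT7, another ductal keratin, had at most 25 counts in a library.

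The sequence before the transcription starts of SNCG and TUBB3 is shown because these were the members whose clones did not overlap between groups, and because ZEB1 binds DNA through CACCT motifs. RefSeq promoter windows (GRCh38.p14, 250 bases before to 50 after a start) were matched by symbol for 5 of the 7 members, with 7 windows. The letters CACCT, or AGGTG for the other strand, are in capitals. Only bases outside annotated exons are printed.
SNCG start 1, chr10:86955509-86955758, plus strand: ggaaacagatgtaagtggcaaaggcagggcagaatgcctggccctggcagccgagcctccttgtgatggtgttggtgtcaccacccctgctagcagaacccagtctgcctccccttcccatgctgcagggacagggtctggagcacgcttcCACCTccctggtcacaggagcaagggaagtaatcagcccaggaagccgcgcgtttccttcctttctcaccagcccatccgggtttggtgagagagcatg
SNCG start 2, chr10:86958349-86958598, plus strand: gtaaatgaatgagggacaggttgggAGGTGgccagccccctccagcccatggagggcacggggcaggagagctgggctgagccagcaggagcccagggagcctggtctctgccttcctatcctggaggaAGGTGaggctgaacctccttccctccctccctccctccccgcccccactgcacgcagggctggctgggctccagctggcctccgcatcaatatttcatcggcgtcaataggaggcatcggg
TUBB3 start 1, chr16:89921675-89921850, plus strand: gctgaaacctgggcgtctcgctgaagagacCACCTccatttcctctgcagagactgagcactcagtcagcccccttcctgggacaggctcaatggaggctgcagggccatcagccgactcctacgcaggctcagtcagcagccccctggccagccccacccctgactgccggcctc
TUBB3 start 2, chr16:89923092-89923278, plus strand: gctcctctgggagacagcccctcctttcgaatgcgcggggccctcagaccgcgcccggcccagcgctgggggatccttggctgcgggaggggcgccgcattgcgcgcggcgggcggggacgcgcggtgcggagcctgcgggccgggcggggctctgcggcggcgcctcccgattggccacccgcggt
CACCT was found once before SNCG start 1, at 99 bases before it, and at 225 and 121 bases before SNCG start 2, on the opposite strand. It was found once before TUBB3 start 1, at 220 bases before it, and had 0 matches at TUBB3 start 2, in ENO2, in SNCB and in UCHL1. Of all 35116 RefSeq windows of the same length, 51.6% held CACCT on either strand and 17.9% held it at least 2 times. The longer form CACCTG, which contains CACCT, or CAGGTG on the other strand, had 0 matches in the 7 windows, against 20.6% of all windows. These letters describe the windows and show no binding.

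Of SNCG and SNCB, only SNCG was expressed above the floor in these clones, and it was higher in every ZEB1-KO clone than in any WT clone. SNCG had counts of 1976, 2007 and 4376 in ZEB1-KO replicates 1, 2 and 3, against 663, 566 and 693 counts in WT replicates 1, 2 and 3. Scaled for depth, these were 98.6, 49.6 and 136 CPM in ZEB1-KO clones and 15.2, 17.5 and 28.1 CPM in WT clones. ZEB1-KO replicate 2 was the lowest ZEB1-KO clone and WT replicate 3 the highest WT clone, and the groups stayed apart. The mean was 94.8 ± 43.4 CPM in ZEB1-KO clones and 20.2 ± 6.88 CPM in WT clones (SD, n = 3 each). ZEB1-KO clones thus had 4.69 times the WT level by the fit, or 2.23 ± 0.40 (SE) as a log2 fold change. SNCB, which encodes beta-synuclein, had counts of 0, 3 and 0 in ZEB1-KO replicates 1, 2 and 3 and 2, 0 and 1 counts in WT replicates 1, 2 and 3, at or under the floor, so no difference was detectable at this depth.

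TUBB3 went the other way and was lower in each ZEB1-KO clone than in any WT clone. It had counts of 179, 1728 and 1530 in ZEB1-KO replicates 1, 2 and 3, against 2957, 2770 and 1925 counts in WT replicates 1, 2 and 3. At 8.93, 42.7 and 47.6 CPM in ZEB1-KO clones and 67.7, 85.4 and 78.0 CPM in WT clones, ZEB1-KO replicate 1 stood far below the other 2 clones of its group. The mean was 33.1 ± 21.1 CPM in ZEB1-KO clones and 77.1 ± 8.89 CPM in WT clones (SD, n = 3 each). This gave a log2 fold change of -1.22 ± 0.52 (SE), and of -0.77 without ZEB1-KO replicate 1.

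ENO2 did not separate the groups. It had counts of 117, 183 and 644 in ZEB1-KO replicates 1, 2 and 3, against 655, 295 and 295 counts in WT replicates 1, 2 and 3. These were 5.84, 4.52 and 20.0 CPM in ZEB1-KO clones and 15, 9.10 and 12.0 CPM in WT clones. ZEB1-KO replicates 1 and 2 lay below all WT clones and ZEB1-KO replicate 3 above them. The fitted log2 fold change was -0.24 ± 0.54 (SE). It was -1.22 when ZEB1-KO replicate 3 was left out, 0.031 when ZEB1-KO replicate 1 was left out and 0.11 when ZEB1-KO replicate 2 was, so its sign rested on single clones.

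**Figure D1:**
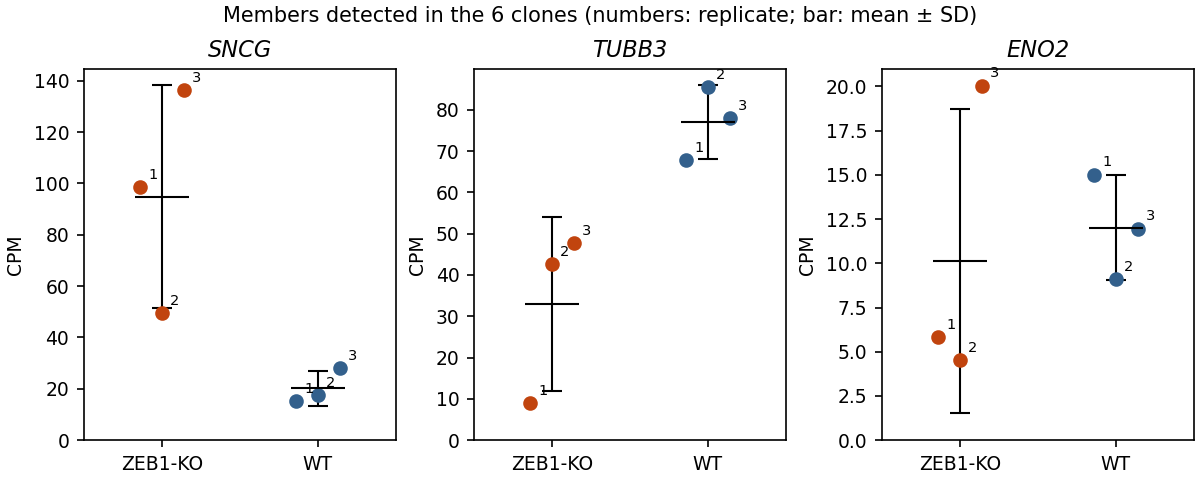
CPM (y axis, from 0) of SNCG, TUBB3 and ENO2 in the ZEB1-KO and WT clones; points are clones with their replicate number, and bars give the mean ± SD of 3 clones. SNCG lay between 49.6 and 136 CPM in ZEB1-KO clones, above the WT clones, TUBB3 between 8.93 and 47.6 CPM, below them, and ENO2 overlapped.

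UCHL1, NEFL and NEFM were not detected: each had 0 counts in all 6 libraries, which allows at most 0.150 CPM in the shallowest library. Of the 7 members, 4 had at least 1 count and 3 passed the filter on low counts. Those 3 are not all members, and no count or median over them stands for the set.

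In the fit across all genes with edgeR's quasi-likelihood test and Benjamini-Hochberg adjustment, 0 of the 3 tested members passed an adjusted p of 0.05, a threshold that 0.176% of the 13659 tested genes passed, 0.117% higher and 0.0586% lower in ZEB1-KO clones. At an unadjusted p below 0.05 were 2 members, SNCG and TUBB3, beside 17.7% of all tested genes. The same 2 had no overlap between groups, as did 23.6% of all tested genes. DESeq2 called 1 member, SNCG, where it called 7.12% of genes, and edgeR's likelihood ratio test called SNCG too, where it called 4.52%. The adjusted p of SNCG was 0.0842 in the quasi-likelihood fit and ran from 8.96e-06 to 0.211 over 17 alternatives, 6 of which called it. In the authors' deposited table, from a likelihood ratio statistic, SNCG stood at 2.22 on the log2 scale, adjusted p = 9.09e-05, in a table where 4.75% of genes were below 0.05. Since the members were picked with this contrast known, these calls describe the files and add no separate evidence.

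**Figure D2:**
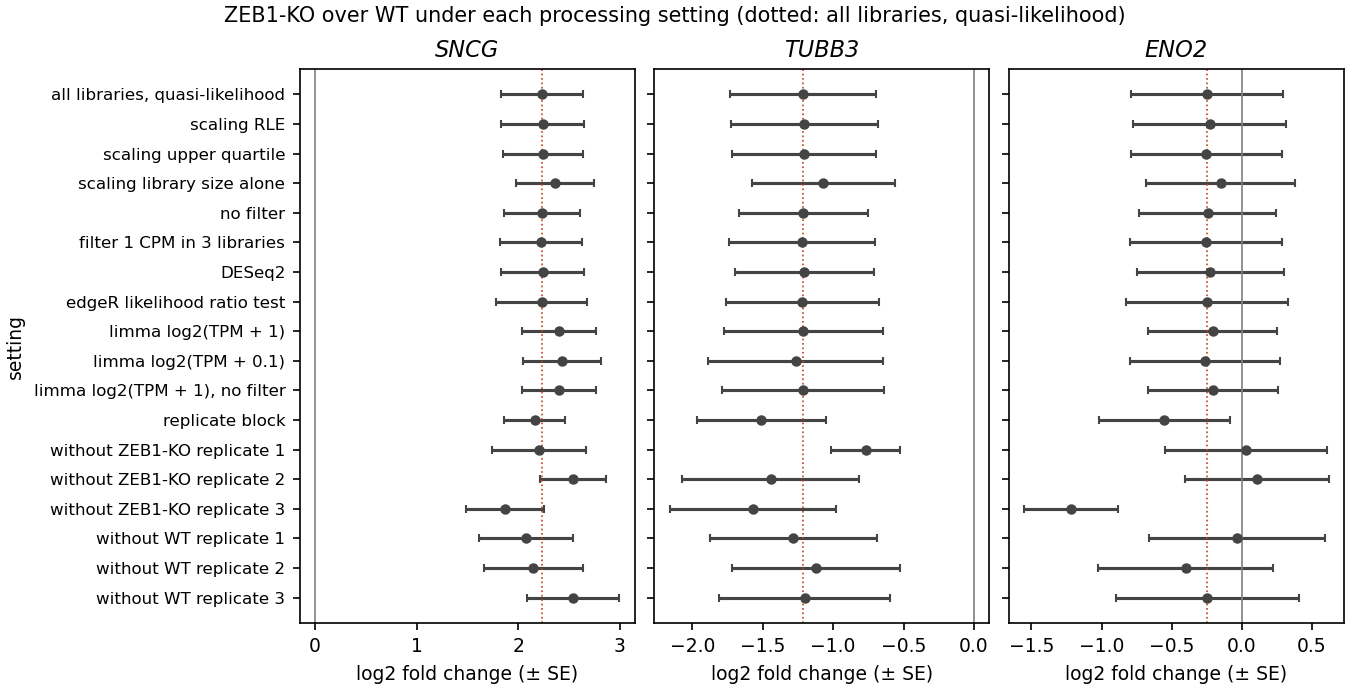
Log2 fold change of ZEB1-KO over WT (x axis, ± SE) for SNCG, TUBB3 and ENO2 under each setting (y axis); the dotted line marks the value from all libraries with the quasi-likelihood test. SNCG stayed between 1.87 and 2.54 and TUBB3 between -1.57 and -0.77, while ENO2 ran from -1.22 to 0.11.

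Levels can be set side by side between genes only per length, and the deposited TPM values, which correct counts for gene length and scale them to the same total in each library, allow this for SNCG, TUBB3 and ENO2. In ZEB1-KO clones SNCG was the most abundant of them, at 194, 111 and 273 TPM in replicates 1, 2 and 3, followed by TUBB3 at 7.23, 39.2 and 39.3 TPM and ENO2 at 3.91, 3.44 and 13.7 TPM. The TUBB3 and ENO2 ranges overlapped there, while SNCG lay above both. In WT clones TUBB3 came first at 52.3, 55.2 and 54.4 TPM, then SNCG at 28.5, 27.4 and 47.6 TPM, then ENO2 at 9.59, 4.87 and 6.90 TPM, with no overlap between neighbours. SNCG and TUBB3 thus stood in the opposite order in the ZEB1-KO and WT clones. Across the 6 libraries their log2 CPM had a Pearson correlation of -0.67, that of ENO2 with TUBB3 was 0.49 and that of ENO2 with SNCG was -0.068; with 6 points in 2 groups these are descriptions only.

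The genes whose log2 CPM followed each member most closely over the 6 libraries were PNPT1 (r = 0.996) and STYK1 (r = 0.994) for SNCG, LINC01205 (r = 0.997) and TAS2R10 (r = 0.995) for TUBB3, and CDK1 (r = 0.996) and ANKRD50 (r = 0.992) for ENO2. Among the 13659 tested genes, 66 had r of at least 0.95 with SNCG, 47 with TUBB3 and 37 with ENO2. The genes named were thus not alone in following a member closely. The correlations are descriptions of 6 points each.

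Genes beside the members on the chromosome were read because SMART-Seq2 does not record the strand. MMRN2, which encodes the endothelial matrix protein multimerin-2, lies on the opposite strand and overlaps the beginning of SNCG on chromosome 10 in RefSeq, so reads in the overlap cannot be told apart. MMRN2 had 8.33, 2.72 and 10.6 CPM in ZEB1-KO replicates 1, 2 and 3, against 0.825, 1.79 and 2.71 CPM in WT replicates 1, 2 and 3. Its clones ran in the same order as those of SNCG within each group, and ZEB1-KO replicate 2 was all but level with WT replicate 3. Its log2 fold change was 2.03 ± 0.60 (SE), adjusted p = 0.144 by edgeR's quasi-likelihood test, which did not call it. DESeq2 and the likelihood ratio test called MMRN2, with adjusted p-values of 0.00895 and 0.0412 in a range of 0.00895 to 0.324 over the alternatives, and its adjusted p was 0.0338 in the authors' deposited table. The part of shared reads in either value was not tested. The next genes on either side of SNCG, BMPR1A, a receptor for bone morphogenetic proteins, and ADIRF, an adipogenesis factor, had log2 fold changes of 0.30 and -0.29 with overlapping groups.

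Both neighbours of TUBB3 on chromosome 16 were also lower in ZEB1-KO clones. MC1R, the melanocortin receptor gene that lies just before TUBB3 and is known to be joined to it in some transcripts, had 1.85, 1.65 and 1.62 CPM in ZEB1-KO replicates 1, 2 and 3, against 3.80, 3.52 and 3.73 CPM in WT replicates 1, 2 and 3. DEF8, on the far side, had 110, 88.3 and 111 CPM in ZEB1-KO replicates 1, 2 and 3, against 198, 188 and 293 CPM in WT replicates 1, 2 and 3. Neither gene had overlapping groups, as was so for 23.6% of all tested genes, and both had tighter ZEB1-KO clones than TUBB3. The log2 fold change was -1.11 for MC1R (SE 0.30, adjusted p = 0.128) and -1.13 for DEF8 (SE 0.24, adjusted p = 0.0966) by the quasi-likelihood test, which neither passed. DESeq2 called both, with adjusted p-values of 0.0332 and 0.00405, within ranges over the alternatives of 0.0332 to 0.313 and 0.00405 to 0.285. The likelihood ratio test called DEF8 (adjusted p = 0.00924) but not MC1R (0.0857). With limma on log2 of TPM plus 1 the log2 fold changes were smaller, at -0.47 for MC1R and -0.82 for DEF8. In the authors' deposited table, from a likelihood ratio statistic, the adjusted p was 0.00906 for DEF8 and 0.088 for MC1R. The neighbours of ENO2 on chromosome 12, LRRC23 and ATN1, had overlapping groups and log2 fold changes of -0.68 and 1.24. That of ATN1 rested on ZEB1-KO replicate 2, at 8.67 CPM, and was 0.062 without it, and that of LRRC23 was -1.32 without ZEB1-KO replicate 3 and -0.26 without WT replicate 3.

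Relatives of the undetected and weakly expressed members were abundant. UCHL3, the closest relative of UCHL1, had 117 ± 20.2 CPM in ZEB1-KO clones and 126 ± 18.1 CPM in WT clones, and UCHL5, a deubiquitinase of the proteasome, had 165 ± 8.94 CPM in ZEB1-KO clones and 158 ± 33.7 CPM in WT clones (SD, n = 3 each). Their log2 fold changes of -0.11 and 0.061, and that of BAP1, a nuclear deubiquitinase, at -0.14, did not pass the test. With library-size scaling alone UCHL3 and BAP1 turned to 0.049 and 0.025. That scaling moved the median of all tested genes to 0.14, against -0.0082 with TMM factors. With limma on log2 of TPM plus 1, UCHL3, BAP1 and UCHL5 stood at 0.16, 0.12 and 0.34. UCHL3 kept its sign in 13 of 17 alternatives, BAP1 in 11 and UCHL5 in 16. ENO1, the enolase of most tissues, had 1574, 2677 and 1463 TPM in ZEB1-KO replicates 1, 2 and 3, against 1426, 702 and 830 TPM in WT replicates 1, 2 and 3. The ENO1 groups did not overlap in TPM but did in CPM, where the lowest ZEB1-KO clone had 2871 and the highest WT clone 2995, and its adjusted p was 0.272 by the quasi-likelihood test on counts. ENO2 made up 0.248%, 0.128% and 0.928% of the summed enolase TPM in ZEB1-KO replicates 1, 2 and 3, against 0.668%, 0.686% and 0.824% in WT replicates 1, 2 and 3. ENO3, the muscle enolase, and ENO4 were at a mean of 1.13 and 1.01 CPM in ZEB1-KO clones and 1.47 and 0.597 CPM in WT clones.

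Most beta-tubulin genes, unlike TUBB3, had a higher mean in ZEB1-KO clones, though none passed the quasi-likelihood test. Of the 8 tested beta-tubulin genes, TUBB3 included, 5 had positive fold changes and the median was 0.42 on the log2 scale, beside -0.0082 over all tested genes. By the quasi-likelihood test 0 of the 8 passed an adjusted p of 0.05, which 0.176% of all tested genes passed. At an unadjusted p below 0.05 were 4 of the 8, beside 17.7% of all tested genes: TUBB, TUBB2A and TUBB2B with positive fold changes, and TUBB3 with a negative one. TUBB, a major tubulin of dividing cells, had 1970, 2566 and 1577 CPM in ZEB1-KO replicates 1, 2 and 3, against 1047, 989 and 1150 CPM in WT replicates 1, 2 and 3, without overlap. Its log2 fold change of 0.94 (SE 0.23) had an adjusted p of 0.115 by the quasi-likelihood test, within a range of 0.0135 (DESeq2) to 0.298 over the alternatives. The likelihood ratio test called TUBB too, with an adjusted p of 0.0306, and the authors' deposited likelihood ratio results gave 0.0335. TUBB2A had 482, 710 and 69.0 CPM in ZEB1-KO replicates 1, 2 and 3, against 43.7, 194 and 48.3 CPM in WT replicates 1, 2 and 3. TUBB2B had 28.0, 88.1 and 4.42 CPM in ZEB1-KO replicates 1, 2 and 3, against 3.46, 8.73 and 3.08 CPM in WT replicates 1, 2 and 3. In both genes replicate 2 was the highest clone of its group and the groups overlapped. The adjusted p by the quasi-likelihood test was 0.240 for TUBB2A and 0.161 for TUBB2B. Of the alternatives, only the likelihood ratio test called TUBB2B, with an adjusted p of 0.0318, and none called TUBB2A. TUBB2A and TUBB2B are near-identical neurally expressed tubulins, so the counting may have split reads between them, and the counts of single tubulin genes are uncertain for that reason. TUBB4B, TUBB4A, TUBB1 and TUBB6 had log2 fold changes of 0.57, 0.27, -0.055 and -0.31, and TUBB1 turned to 0.10 with library-size scaling alone. TUBB8 was too low to test. TUBB3 made up 0.389%, 1.24% and 2.61% of the summed beta-tubulin TPM in ZEB1-KO replicates 1, 2 and 3, against 4.90%, 6.38% and 5.47% in WT replicates 1, 2 and 3, and the groups did not overlap.

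**Figure D3:**
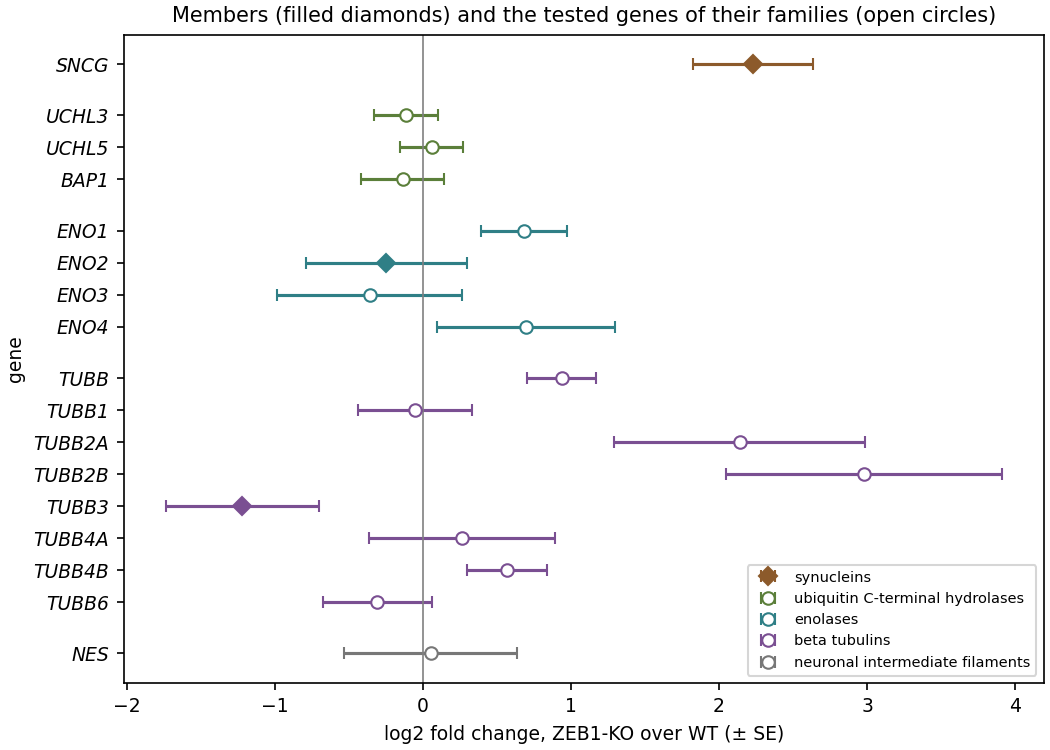
Log2 fold change of ZEB1-KO over WT (x axis, ± SE) for the tested members (filled diamonds) and the tested genes of their families (open circles). TUBB3 stood at -1.22 while TUBB, TUBB2A and TUBB2B stood at 0.94, 2.14 and 2.98, and UCHL3, UCHL5 and BAP1 lay close to 0.

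The other intermediate filament genes of neurons were at or near the floor, with the exception of NES. NEFH, the heavy chain, had 3 counts in ZEB1-KO replicate 2 and 0 elsewhere, INA, which encodes alpha-internexin, had 1 count in ZEB1-KO replicate 1 and 0 elsewhere, and PRPH, which encodes peripherin, had at most 5 counts in a library. NES, which encodes nestin of neural progenitors, was the only one of the 6 to pass the filter. It had counts of 8, 41 and 11 in ZEB1-KO replicates 1, 2 and 3, against 16, 31 and 10 counts in WT replicates 1, 2 and 3, with a log2 fold change of 0.053.

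A wider set of 76 neuronal-type genes covered neuronal filaments, cytoskeleton and axon growth, synaptic and neurosecretory proteins, and neuronal RNA-binding proteins and transcription factors. Of the 76, 16 had 0 counts in every library, 32 had at most 3 counts in any library, and 27 passed the filter. NEFL and NEFM are the only members among the 76, so SNCG, TUBB3 and ENO2 are outside these counts. Of all 26334 symbols, 6247 had 0 counts in every library, 9727 had at most 3 counts in any library, and 13659 passed the filter. Among the 17 RNA-binding proteins and transcription factors, 8 had 0 counts in every library, among them RBFOX3 (NeuN), ELAVL4, NEUROD1 and INSM1, and none passed the filter. CHGA, the chromogranin A gene used as a neuroendocrine marker, STMN2 and CRMP1 were also at 0 throughout. Of the 27 tested genes, 14 had positive fold changes and the median was 0.053 on the log2 scale, beside -0.0082 over all tested genes. The quasi-likelihood test called 0 of the 27 at an adjusted p of 0.05, as did the likelihood ratio test. DESeq2 also called 0, but gave SYT1 no adjusted p. The limma fits called 0 too, but only 15 of the 27 had TPM values. The limma fits with a TPM filter also left out further genes with a mean TPM below 1, MAP1A among them. By the quasi-likelihood test 1 gene, or 3.70%, was at an unadjusted p below 0.05, beside 17.7% of all tested genes. That gene was MAP1A, a microtubule-associated protein gene, at 4.25 ± 1.57 CPM in ZEB1-KO clones and 1.98 ± 0.771 CPM in WT clones (SD, n = 3 each), for a log2 fold change of 1.09 ± 0.45 (SE), adjusted p = 0.254 by the quasi-likelihood test.

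Several expressed neuronal-type genes differed widely between clones of the same group. SCG2, which encodes the secretory-granule protein secretogranin-2, had counts of 3433, 70 and 26777 in ZEB1-KO replicates 1, 2 and 3, against 1039, 12480 and 54 counts in WT replicates 1, 2 and 3. Each group thus held a clone with almost no SCG2 and a clone with very much, and the SD of its log2 CPM within groups, 4.18, ranked 7 among 13659 tested genes. Its log2 fold change of 1.29 (adjusted p = 0.745 by the quasi-likelihood test) ran from -0.67 to 4.68 as single libraries were left out. SYT1, the calcium sensor of synaptic vesicles, had counts of 157, 20 and 18 in ZEB1-KO replicates 1, 2 and 3, against 32, 68 and 1314 counts in WT replicates 1, 2 and 3, with WT replicate 3 alone high. Its log2 fold change was -2.69 (adjusted p = 0.416 by the quasi-likelihood test), and 1.05 without WT replicate 3. DPYSL2, a collapsin-response mediator of axon growth, had 11.5, 32.5 and 54.1 CPM in ZEB1-KO replicates 1, 2 and 3, against 133, 11.7 and 170 CPM in WT replicates 1, 2 and 3. TUBA1A, an alpha-tubulin of neurons, had 74.1 ± 27.8 CPM in ZEB1-KO clones and 74.3 ± 12.3 CPM in WT clones (SD, n = 3 each). Over the 27 tested genes the median within-group SD of log2 CPM was 0.745, beside 0.382 over all tested genes, whose median level was 11.7 CPM against 1.36 CPM for the 27. The part of the lower level in this wider spread was not tested. SNCG, ENO2 and TUBB3 had within-group SDs of 0.62, 0.85 and 0.96.

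**Figure D4:**
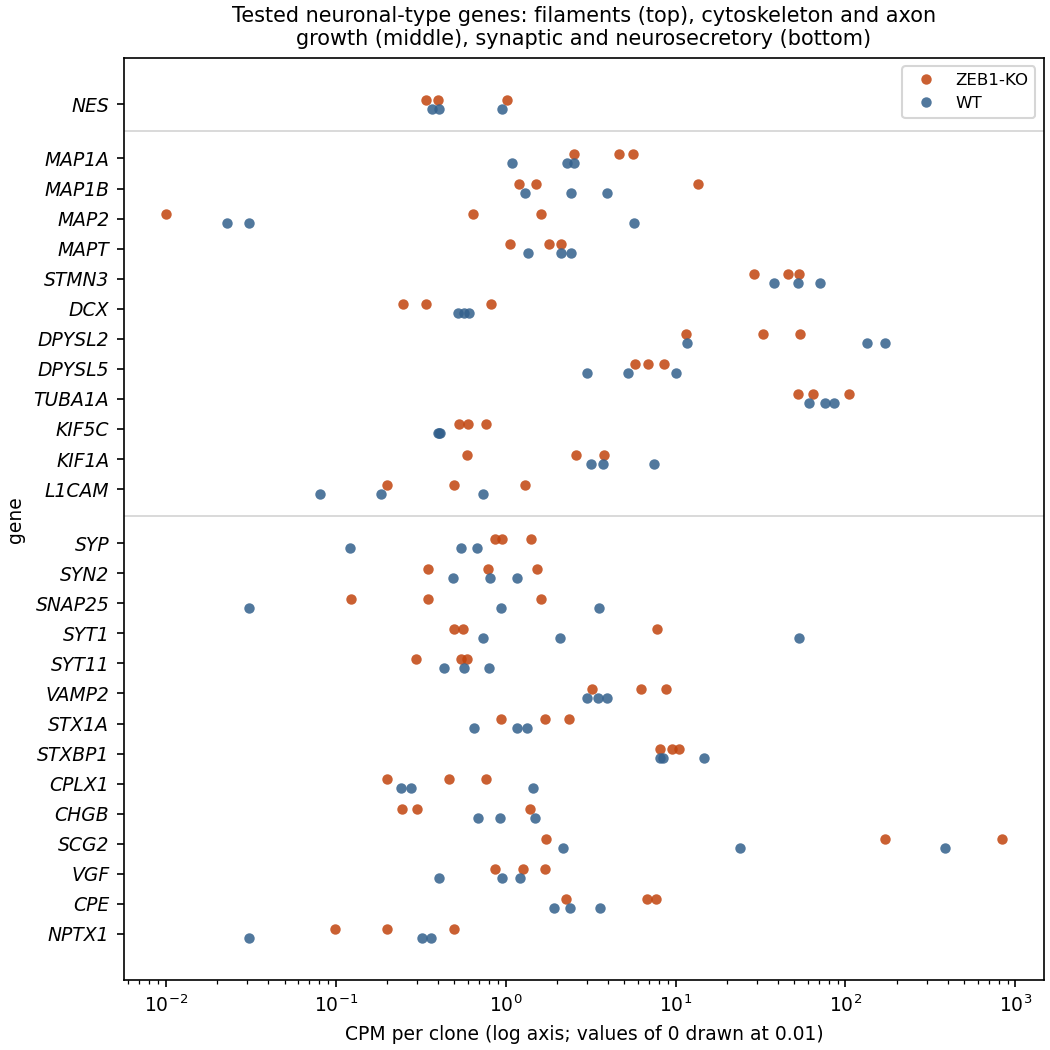
CPM per clone (log x axis) of the 27 tested neuronal-type genes (y axis), ZEB1-KO clones above and WT clones below the line of each gene. SCG2 spread from 1.73 to 834 CPM among ZEB1-KO clones and from 2.19 to 385 CPM among WT clones.

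Of 13 listed repressors of neuronal genes, 12 passed the filter and were expressed in all clones, REST among them. RCOR2 was too low to test, with at most 5 counts in a library and 0 in WT libraries. REST had 49.2 ± 8.30 CPM in ZEB1-KO clones and 68.8 ± 5.83 CPM in WT clones (SD, n = 3 each). The REST groups did not overlap in CPM, as was so for 23.6% of all tested genes. In TPM they did overlap, with ZEB1-KO replicate 3 at 12.4 TPM and WT replicate 2 at 11.8 TPM. The log2 fold change of REST, -0.48 (SE 0.21), had an adjusted p of 0.278 by the quasi-likelihood test. It was -0.20 with limma on log2 of TPM plus 1. Of the 12 tested genes of this group, 7 had positive fold changes and the median was 0.22 on the log2 scale. By the quasi-likelihood test 0 of the 12 passed an adjusted p of 0.05 and 3 had an unadjusted p below 0.05, or 25% beside 17.7% of all tested genes. REST, HDAC1, HDAC2 and EHMT2 passed under 0 of 17 alternatives, DESeq2 among them. The deacetylase gene HDAC1 had 134 ± 18.3 CPM in ZEB1-KO clones and 84.4 ± 23.9 CPM in WT clones, HDAC2 had 245 ± 13.4 CPM in ZEB1-KO clones and 176 ± 34.4 CPM in WT clones, and EHMT2, a histone methyltransferase gene, had 14.2 ± 7.24 CPM in ZEB1-KO clones and 6.74 ± 1.39 CPM in WT clones (SD, n = 3 each). Their log2 fold changes of 0.67, 0.47 and 1.08 had adjusted p-values of 0.221, 0.290 and 0.220 by the quasi-likelihood test. Among the 12, groups did not overlap in CPM for 3 genes higher in ZEB1-KO clones, HDAC1 and HDAC2 included, and for 1 lower, REST.

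Most markers of other cell types were at or near the floor, with some exceptions. Of 10 glial markers, 6 had at most 3 counts in any library, with S100B and OLIG2 among those at 0, and MBP was the highest, at 54.6 ± 11.4 CPM in ZEB1-KO clones and 73.1 ± 9.01 CPM in WT clones (SD, n = 3 each). The summed level of the 10 was 45.1 to 67.7 CPM in ZEB1-KO clones and 63.4 to 82.3 CPM in WT clones. Of 5 islet cell markers, INS, GCG, SST and PPY were at 0 throughout. The fifth, IAPP, which encodes islet amyloid polypeptide, had 0.449, 0.766 and 0.467 CPM in ZEB1-KO replicates 1, 2 and 3, against 0.825, 0.925 and 0.891 CPM in WT replicates 1, 2 and 3. The IAPP groups did not overlap, for a log2 fold change of -0.63, adjusted p = 0.435 by the quasi-likelihood test. Of 11 blood, endothelial and fibroblast markers, 7 had at most 3 counts in any library, with CD3E, DCN and LUM among those at 0, and the summed level was 3.66 to 7.97 CPM in ZEB1-KO clones and 2.07 to 4.83 CPM in WT clones. CD68, a lysosomal protein gene of macrophages, had the highest mean of them, at 4.47 ± 2.02 CPM in ZEB1-KO clones and 2.49 ± 0.978 CPM in WT clones (SD, n = 3 each). CDH5, the endothelial cadherin gene, had 59, 1 and 22 counts in ZEB1-KO replicates 1, 2 and 3, against 24, 3 and 1 in WT replicates 1, 2 and 3. The groups overlapped for CD68 and CDH5, and the part of these markers in the levels of the neuronal-type genes was not tested.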

How the data were processed

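The authors deposited raw counts for 26334 gene symbols, and, for 11013 of these, TPM values and edgeR results, per the file headers: each gene's log2 fold change with its p-value before and after adjustment, a score (the likelihood ratio statistic) and a mean log2 CPM. Per the submitters' processing notes, the tools included HTSeq 0.6.1, TopHat2 2.1.0 and edgeR 3.2.2, and the builds named are GRCh37 and hg19; the sources used here state neither their settings nor the TPM gene lengths. Groups and replicates came from the sample titles, and replicates are separate clones per the series design.

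The deposited counts went into edgeR 4.0.16 (R 4.3.3). The filter was filterByExpr (minimum count 10, total 15), scaling used TMM, and glmQLFTest ran on the group alone, two-sided, with Benjamini-Hochberg adjustment over 13659 genes at 0.05. The SE came from the F statistic. Log2 CPM used a prior count of 2. Alternatives used other scalings and filters, DESeq2 1.42.0, the likelihood ratio test, limma 3.58.1 on log2 of TPM plus 1 or 0.1, the replicate number as a block, and each library left out. An exact permutation test with 3 against 3 clones cannot go below p = 0.1. The fit was tested on simulated data.

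Members and lists were chosen with earlier results of these data known. The genes named are the members, their families, ZEB1, and genes of each other list by rule. These are those past the threshold, up to 4 at an unadjusted p below 0.05 and the 2 with the highest mean CPM. For each member the 2 genes of closest correlation were added. Genes at 0, RCOR2 and cell markers illustrate counts. Neighbours of the members were added by position. Promoter sequences are RefSeq's, matched by symbol; sequences of other members, and some genes of the lists, are not reported here.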

Additional observations from a re-analysis of the deposited data

How the results depend on the processing

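The number of genes called moved with the test and the libraries. Against 24 calls, it was 134 without a filter, 935 with DESeq2, 617 with the likelihood ratio test, and 104, 89 and 93 with limma on log2 of TPM plus 1, of TPM plus 0.1 and of unfiltered TPM plus 1. Leaving out 1 library gave 5 to 25 calls. Other scalings gave 24 to 27 and the filter of 1 CPM in 3 libraries gave 20. The wider set of 76 neuronal-type genes, which leaves out SNCG, TUBB3 and ENO2, had 0 calls under all 17 alternatives. Some of these did not test every gene of the set. SNCG itself was called under 6 of the 17. Replicate numbers did not pair the clones: deviations of same-numbered clones correlated at 0.0219, 0.00714 and 0.224, and only ZEB1-KO replicate 3 correlated best with its own number. With the replicate number as a block there were 20 calls, and SNCG had a log2 fold change of 2.16 (adjusted p = 0.0712). Of 566 recomputed fold changes of 34 named genes, 537 moved by less than the spread between clones and 29 by more, and SNCG and TUBB3 kept their sign in all 17 alternatives. Depth limits SNCB, UCHL1, NEFL and NEFM, for which changes under the floor cannot be seen.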
